A study of Zea mays with 6 samples.

Results

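The 100 most abundant nuclear genes of maize anthers were chosen by their level in wild-type (WT) libraries and then followed into zmrpn1 mutant anthers. Levels are in CPM, a gene's count divided by the total count of its library and multiplied by 1000000. The genes were selected on the mean CPM of the 3 WT libraries, from 44146 nuclear rows with Zm00001d identifiers in a table of 46430 rows. Their high WT level is therefore the rule and not a finding, and the zmrpn1 libraries took no part in the choice.

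The RNA-seq libraries were made from maize (Zea mays) anthers of stages S3 to S5, per the labels. The WT group carries the genotype code AA. The zmrpn1 group carries the code aa, is given as a ZmRPN1 knockout, the zmrpn1-1 allele in the series' design text, and has Mutator in its titles, the name of a maize transposon family that is widely employed for insertional mutagenesis. Each group had 3 libraries, and the series title ties ZmRPN1 to the number of pollen grains. The labels name no background line, do not say if WT and mutant plants were siblings, and leave unstated whether each library is a separate plant or a pool. The p-values therefore set the difference between the groups against the spread between these libraries, estimated with information shared across genes. How that spread relates to the spread between plants is not known.

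In growing plant organs the most abundant messenger RNAs commonly encode ribosomal proteins, translation factors, histones, cytoskeletal proteins, ubiquitin and enzymes of central metabolism. Young anthers are organs of dividing cells that set up the wall layers and the cells that enter meiosis. The identifiers of the genes are not paired with names by the count table, and the reference gene table matched 0 of the 100, so none can be assigned to these classes and no anther marker or targeted gene could be checked. A long transcript gives more reads than a short one at the same number of molecules, and lengths were not used here. The order of the genes is therefore an order by share of reads and not by number of transcripts.

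Library totals ran from 16203290 to 29515176 counts. A listed gene had between 9750 and 128513 counts in a library, so that counting error alone was between 0.279% and 1.01% of a value. All 100 genes were tested among the 23477 genes that passed the filter on low counts. No mitochondrial, plastid or other row reached the mean WT level of the last gene on the list.

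The level fell steeply over the first few genes and slowly after them. Zm00001d047787 was the highest, with 4560, 4345 and 4354 CPM in WT and 4113, 4136 and 4649 CPM in zmrpn1. Zm00001d031168 came next, with 3650, 3338 and 3268 CPM in WT and 3404, 3615 and 4391 CPM in zmrpn1. For both genes the groups overlapped and zmrpn1 replicate 3 was the highest library. The 8 genes that followed in WT order were Zm00001d014858, Zm00001d041550, Zm00001d043049, Zm00001d033850, Zm00001d000001, Zm00001d013367, Zm00001d027652 and Zm00001d006213. Their mean WT levels fell from 2692 ± 79.9 CPM (SD, n = 3) for the first of them to 2087 ± 37.2 CPM for the last. These 10 were the only genes above 2000 CPM in WT, and 42 of the 100 lay above 1000 CPM. The median of the list was 919 CPM, and the highest mean was 7.07 times the lowest.

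**Figure D1:**
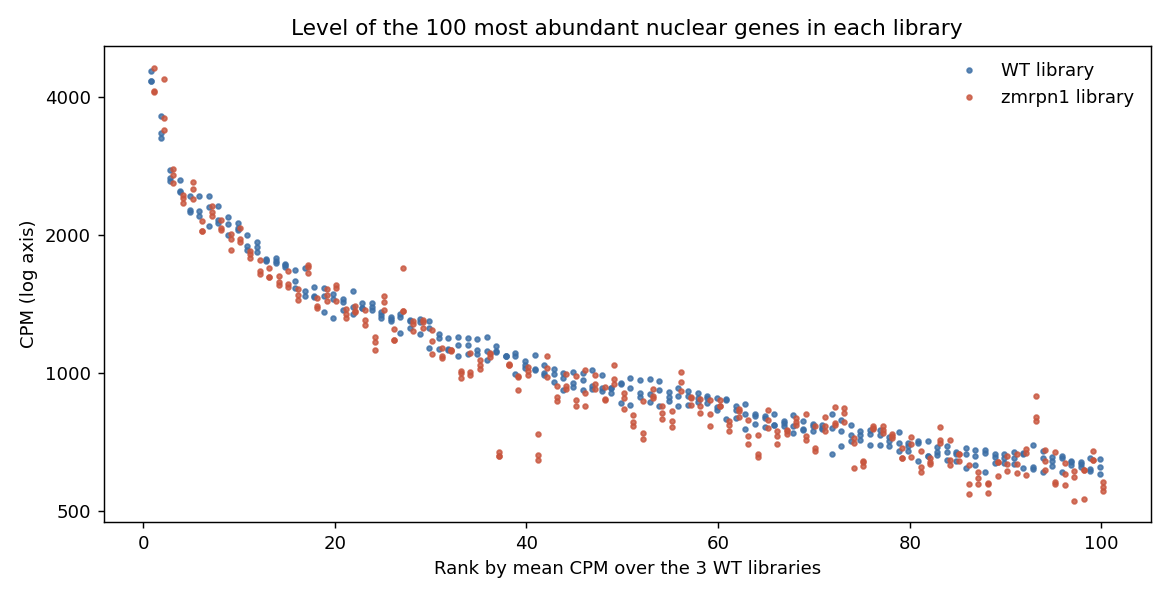
CPM (log axis) of each of the 100 genes in each library, against the rank of the gene by mean WT CPM. Blue points are the 3 WT and red points the 3 zmrpn1 libraries. Most red points lie among or just under the blue ones, and the genes at ranks 37 and 41 are the ones whose red points stand furthest below.

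The lower end of the list was not a break in level. The genes at ranks 99 and 100 had WT means of 627 ± 22.8 and 625 ± 23.9 CPM (SD, n = 3), and the first 2 genes left out had 620 ± 13.3 and 616 ± 40.3 CPM. These neighbours differed by less than the spread between WT libraries, so which genes closed the list depended on small differences. Taken library by library, the list shared 97 to 98 genes with the 100 highest of each WT library.

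The 100 genes took 11.7%, 11.4% and 11.2% of all counts in the WT libraries and 10.8%, 10.9% and 11.4% in the zmrpn1 libraries. The means were 11.4 ± 0.278% in WT and 11.0 ± 0.327% in zmrpn1 (SD, n = 3). The third zmrpn1 library lay inside the WT range, so the groups overlapped. The first 10 genes took 2.64 ± 0.0934% in WT and 2.61 ± 0.121% in zmrpn1, and ranks 51 to 100 took 3.72 ± 0.0739% and 3.59 ± 0.0805%. The gap between the group means was smaller than the SD within a group for the first 10 genes and larger than it for ranks 51 to 100. No test was made of these sums, because the WT libraries chose the genes.

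The levels were reproducible among libraries of a genotype. The coefficient of variation (CV, the SD over the mean, n = 3) had a median of 3.83% in WT, with a range of 0.205% to 9.90%. In zmrpn1, whose libraries did not choose the genes, the median was 3.54% and the range 0.349% to 13.7%. Without zmrpn1 replicate 3 the zmrpn1 median was 1.81%. The CV was under 5% for 76 genes in WT and for 74 in zmrpn1. Counting error had a median of 0.723% in WT and 0.732% in zmrpn1, and the observed CV was above it in 99 and 98 of the 100 genes. The median biological CV that edgeR, a count-based test, estimated per gene was 4.58% for the list and 5.70% for all tested genes. It was 4.56% for the next 100 genes in WT order, so the low value was not particular to the list.

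The genes with the lowest CV in zmrpn1 were Zm00001d030725, Zm00001d033210 and Zm00001d005276. Zm00001d030725 had 1117, 1121 and 1125 CPM in zmrpn1, a CV of 0.349%, against 1191, 1131 and 1124 CPM in WT. That CV is below its counting error of 0.645%. Zm00001d033210 had close values in both genotypes, with 1091, 1087 and 1088 CPM in WT and 1048, 1039 and 1039 CPM in zmrpn1. Its CVs of 0.205% in WT and 0.493% in zmrpn1 are likewise below its counting errors of 0.665% and 0.669%. Even so, its log2 change of -0.08 (standard error 0.05) missed the threshold (edgeR adjusted p = 0.389). The fit shares information on spread across genes, so a gene with unusually close replicates is not tested on those alone. Zm00001d005276 had 767, 758 and 755 CPM in zmrpn1 and 695, 736 and 752 CPM in WT.

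The most variable genes in zmrpn1 were high in zmrpn1 replicate 3. The CV was 10% or more in 3 genes, and in 0 genes in WT. Zm00001d031168, the second most abundant gene, had a CV of 13.7% in zmrpn1 and 5.94% in WT. Zm00001d013568 had 1367, 1366 and 1696 CPM in zmrpn1, a CV of 12.9%, against 1344, 1221 and 1327 CPM in WT. Its first 2 zmrpn1 libraries lay close to the WT range and the third stood above all others. The remaining gene of the 3 had 719, 739 and 868 CPM in zmrpn1, with its highest value again in replicate 3.

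This pattern was common to much of the list. Zmrpn1 replicate 3 was the highest library of its group for 74 of the 100 genes, where it was the highest for 35.0% of all tested genes. WT replicate 1 was the highest WT library for 68 of the 100, against 32.1% of all tested genes. The median log2 ratio of a gene to its own WT mean was 0.04, -0.0037 and -0.03 in the WT libraries and -0.08, -0.08 and -0.02 in the zmrpn1 libraries. The abundant genes thus moved together between libraries of a genotype by amounts close to the median difference between genotypes. The part of this shared movement in the differences below was not tested, but each count is given with single libraries left out.

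**Figure D2:**
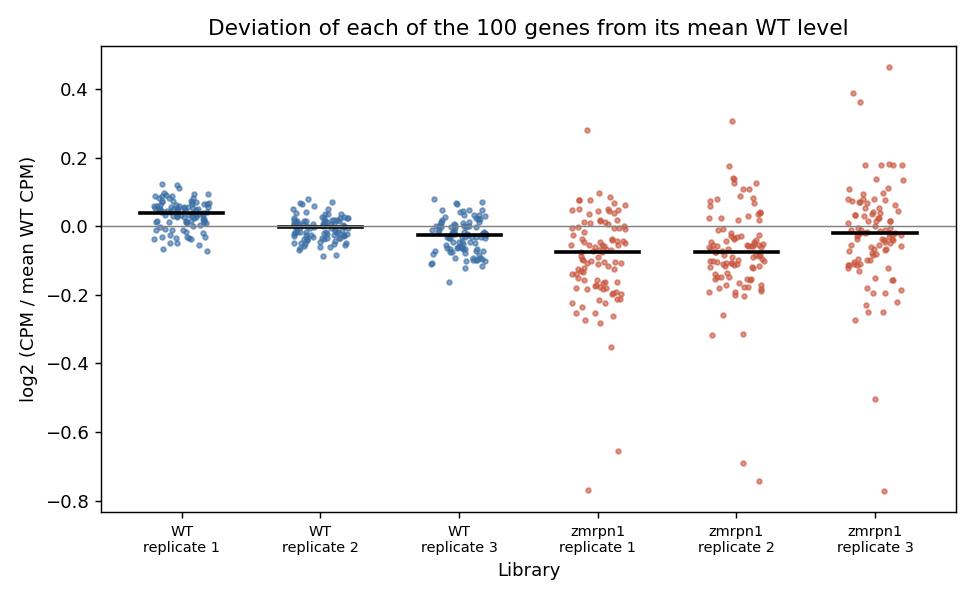
Log2 of the CPM of each of the 100 genes over its mean WT CPM, by library, with WT in blue and zmrpn1 in red. Black bars are medians over the 100 genes, which lie at -0.08 in zmrpn1 replicates 1 and 2 and at -0.02 in replicate 3.

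Most of the abundant genes differed little between zmrpn1 and WT, and those that passed the test were nearly all falls. At a Benjamini-Hochberg adjusted p under 0.05 over all tested genes (edgeR quasi-likelihood test, n = 3 and 3), 22 of the 100 genes were called, against 12.4% of all tested genes. Of these, 21 were lower in zmrpn1, where 5.82% of all tested genes were, and 1 was higher, where 6.63% were. Because the WT libraries both chose the genes and entered the change, a gene high in WT by chance is favoured and its change is drawn downward. With the 100 highest zmrpn1 means in place of the WT means, which favours the opposite direction, 17 genes were called lower and 5 higher. Of those 100 genes, 93 were the same as before, and the 7 exchanged genes account for the change in these numbers. With the 100 highest means over all 6 libraries, a choice that uses both genotypes alike, 19 genes were called lower and 2 higher. More falls than rises were thus called under each choice. How much of the excess of falls came from the choice of genes was not tested.

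The number of called genes depended on single libraries. Without zmrpn1 replicate 3, 34 of the 100 genes were called lower. The number was 8 without zmrpn1 replicate 1, 11 without zmrpn1 replicate 2, 9 without WT replicate 1 and 9 without WT replicate 2. It stayed at 21 without WT replicate 3. Over all tested genes 1366 were called lower in the reported fit. That number was 1339, 1122, 1255, 1033, 1077 and 1260 in these fits, in the order given. It was below 1366 in each of them, while the number in the list rose to 34 in the first and stayed at 21 in the last. Where the list gave 8 or 9, all tested genes gave 1033 to 1122. The single higher call became 3 without zmrpn1 replicate 1, and 2 without zmrpn1 replicate 2 or without WT replicate 1. All 22 called genes kept their direction in 14 other fits, and 9 of them, 8 lower and 1 higher, were called in every one of those fits. With another scaling, by the upper quartile of counts, 13 were called lower, against 1310 of all tested genes.

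The median log2 change of the 100 genes was -0.08, and that of all tested genes was 0.0012. Negative values were found for 80 of the 100 genes, against 49.6% of all tested genes. The median stayed between -0.0838 and -0.0681 with the other scalings and between -0.0986 and -0.0610 with any single library left out, and it was -0.0570 for the 100 highest zmrpn1 means. The next 100 genes in WT order had a median of -0.03, with 11 called lower and 5 called higher. In the list itself, ranks 1 to 50 had 10 genes called lower and 0 higher, and ranks 51 to 100 had 11 lower and 1 higher. At an unadjusted p under 0.05, 18 of ranks 1 to 50 and 21 of ranks 51 to 100 passed, against 23.4% of all tested genes.

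The changes were small. The median absolute log2 change was 0.09 for the list and 0.10 for all tested genes. The median standard error was 0.0523 for the list and 0.0877 for all tested genes. It was also 0.0523 for the next 100 genes in WT order, of which 16 were called and whose median absolute log2 change was 0.0664. The larger share of called genes in the list did not go with a larger median absolute change than in all tested genes. All tested genes also had the larger standard error. Against the next 100 genes, with the same median standard error, the median absolute change of the list was larger. Whether the standard error accounts for that share was not tested. The log2 change was within 0.25 in either direction for 95 of the 100 genes and reached 0.5 for 2 genes, both lower. Of the 23477 tested genes, 18118 were within 0.25 and 2203 reached 0.5. Of the next 100 genes in WT order, 91 were within 0.25 and 4 reached 0.5.

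**Figure D3:**
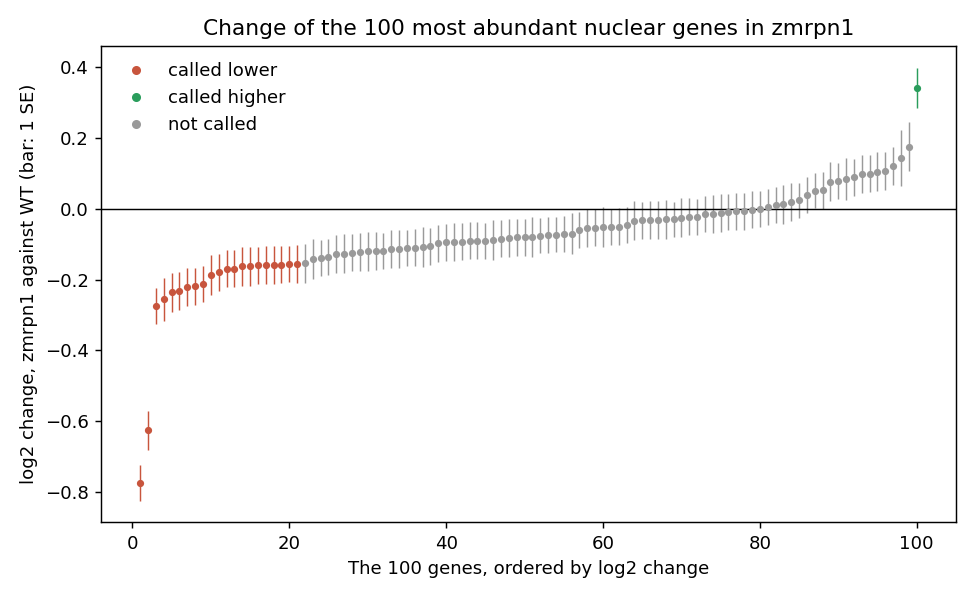
Log2 change in zmrpn1 against WT of the 100 genes, ordered by value, with bars of 1 standard error. Red marks the 21 genes called lower, green the 1 called higher and grey the 78 not called, and the lowest 2 values, -0.77 and -0.63, stand apart from the others.

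Zm00001d045042 showed the largest fall. It had 1147, 1110 and 1115 CPM in WT and 660, 672 and 658 CPM in zmrpn1, and no zmrpn1 library came near the WT range. Its mean went from 1124 ± 20.2 to 664 ± 7.63 CPM (SD, n = 3), a log2 change of -0.77 (standard error 0.05, edgeR adjusted p = 6.11e-15). On the scale of the fit the level fell by 41.5%. Its rank went from 37 in WT to 82 in zmrpn1, and its log2 change lay between -0.78 and -0.75 in all 14 other fits.

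Zm00001d011080 showed the second largest fall. It had 1093, 1017 and 1019 CPM in WT and 663, 646 and 736 CPM in zmrpn1, with no overlap between the groups and zmrpn1 replicate 3 again the highest of its group. Its log2 change was -0.63 (standard error 0.06, edgeR adjusted p = 2.51e-11), a fall of 35.2% on the scale of the fit. Its rank went from 41 to 78. The log2 change lay between -0.69 and -0.58 in the 14 other fits.

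The single called rise was that of Zm00001d003379. It had 698, 624 and 618 CPM in WT and 784, 800 and 891 CPM in zmrpn1, and all zmrpn1 libraries lay above all WT libraries. Its log2 change was 0.34 (standard error 0.06, edgeR adjusted p = 2.83e-05), a fold of 1.27. Its rank went from 93 to 54. The change lay between 0.28 and 0.40 in the 14 other fits and passed the threshold in each.

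**Figure D4:**
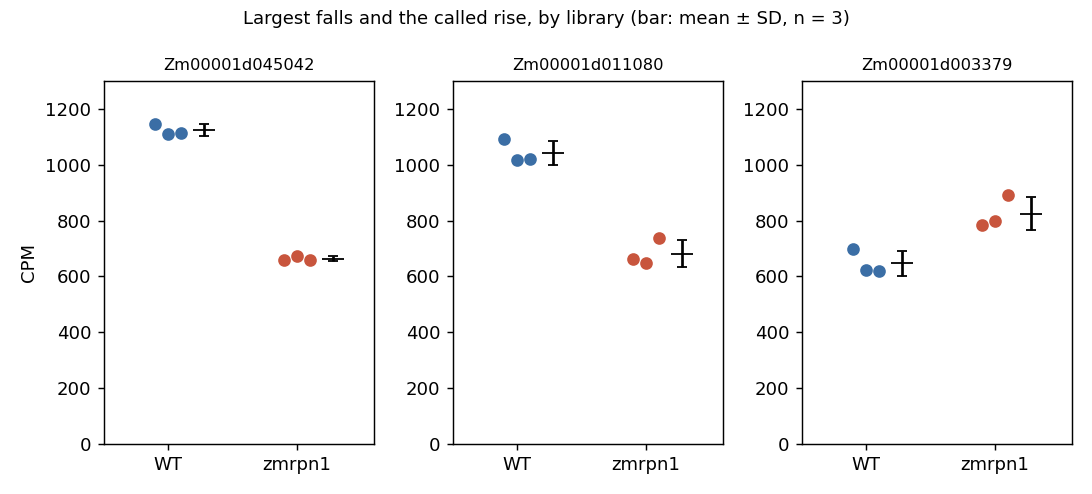
CPM of Zm00001d045042, Zm00001d011080 and Zm00001d003379 in each library, with WT in blue, zmrpn1 in red and bars for the mean ± SD (n = 3). The groups do not overlap for any of the 3 genes, and the first falls from 1124 to 664 CPM.

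The other 19 falls were of a smaller size and close to each other. Their log2 changes ran from -0.28 to -0.16. On the scale of the fit, the largest of them fell by 17.4% and the smallest fell by 10.2%, with edgeR adjusted p from 0.000114 to 0.0468. The groups did not overlap in 16 of the 19, and overlapped in 3, where zmrpn1 lay wholly below WT in 11.8% of all tested genes. The same libraries gave the calls, so this separation adds no further support to them. They were spread over the list, from rank 6 downward. Of the 10 most abundant genes 1 was called, Zm00001d033850, with 2434, 2262 and 2204 CPM in WT and 2044, 2042 and 2148 CPM in zmrpn1. Its log2 change of -0.16 (standard error 0.05) was close to the threshold (edgeR adjusted p = 0.0447), and the call was lost without WT replicate 1 (adjusted p = 0.265), WT replicate 2 (0.117), zmrpn1 replicate 1 (0.188) or zmrpn1 replicate 2 (0.176). It was also lost with upper quartile scaling (adjusted p = 0.0755), a filter at 1 CPM (0.0526) and the replicate number as a block (0.0961).

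The 78 genes that were not called had log2 changes from -0.15 to 0.17, 59 negative and 19 positive. For 74 of them the interval of 2 standard errors around the change lay wholly within 0.25 log2 units of 0. The same changes and standard errors set these genes apart as not called, so the interval is no separate evidence of a lack of change. Groups that did not overlap were found for 20 of the 78, 15 with zmrpn1 below and 5 with zmrpn1 above. Over the whole list, zmrpn1 lay wholly below WT in 33 genes and wholly above in 6, against 11.8% and 15.2% of all tested genes. The log2 changes of the 10 most abundant genes ran from -0.16 to 0.14.

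The order of the genes changed little between genotypes. The 10 highest genes in WT were also the 10 highest in zmrpn1, and the first 3 kept their places. Of the 100 genes 93 were also among the 100 highest zmrpn1 means, and 86 were among the 100 highest in each of the 6 libraries. The median shift in rank was 4 places. It was over 10 places for 17 genes, 12 of them to a lower place and 5 to a higher place.

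The 7 genes that left the list in zmrpn1 came from its lower end, and the lowest placed went to rank 118. Their log2 changes ran from -0.22 to -0.09, and 4 were called lower. The 7 genes that took their places had WT ranks down to 189 and log2 changes from 0.06 to 0.61, and 4 were called higher. These sets were made by their ranks in both genotypes, so their directions follow from the choice. The entrant with the highest place in zmrpn1 was Zm00001d031636, which had 497, 514 and 521 CPM in WT and 645, 649 and 698 CPM in zmrpn1, with no overlap. Its log2 change was 0.37 (standard error 0.05, edgeR adjusted p = 1.00e-06), and its rank went from 140 to 80. The entrant with the lowest WT rank went from 428 ± 27.9 to 660 ± 7.34 CPM (SD, n = 3).

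**Figure D5:**
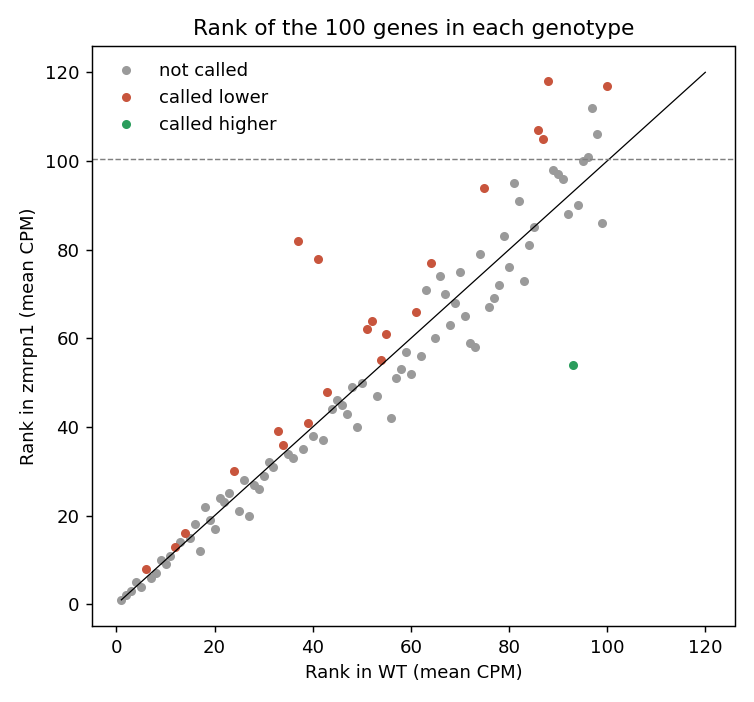
Rank of each of the 100 genes by mean CPM in zmrpn1 against its rank in WT, with the line of equal rank and a dashed line after rank 100. Red genes were called lower, the green gene was called higher, and the 7 points above the dashed line left the 100 highest in zmrpn1.

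Some of the abundant genes were neighbours in the count table. There were 3 pairs in neighbouring rows and another 2 pairs 3 rows apart. Zm00001d047787, the most abundant gene, stood beside Zm00001d047788, which had 909, 888 and 869 CPM in WT and 761, 787 and 827 CPM in zmrpn1. The log2 change of Zm00001d047788 was -0.18 (standard error 0.05, edgeR adjusted p = 0.0156), and that of Zm00001d047787 was -0.05 (standard error 0.06, adjusted p = 0.649). The call of Zm00001d047788 was lost without WT replicate 1 (adjusted p = 0.0828), WT replicate 2 (0.0772), zmrpn1 replicate 1 (0.145) or zmrpn1 replicate 2 (0.0689). The difference between the pair was not tested.

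Zm00001d044246 and Zm00001d044247 had WT means of 1887 ± 47.4 and 762 ± 14.7 CPM and zmrpn1 means of 1692 ± 62.5 and 710 ± 49.4 CPM (SD, n = 3). The log2 change was -0.17 for the first (edgeR adjusted p = 0.0250) and -0.11 for the second (adjusted p = 0.194). The call of the first was lost without WT replicate 1 (adjusted p = 0.119), WT replicate 2 (0.109), zmrpn1 replicate 1 (0.166) or zmrpn1 replicate 2 (0.120), and with the replicate number as a block (0.0604). Zm00001d013066 and Zm00001d013067 had close WT means of 944 ± 42.1 and 884 ± 21.0 CPM and zmrpn1 means of 894 ± 32.6 and 848 ± 29.0 CPM, and neither was called. Neighbouring genes can be near-identical copies, and how the counting treated reads that map to several places is not stated in the labels. The split of reads within such pairs is therefore uncertain.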

How the data were processed

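Libraries were built from DNase-treated total RNA of anthers (NEBNext Ultra II kit, per the labels' protocols). Tools listed without settings in the submitters' processing notes are HISAT2 2.2.1, Trimmomatic 0.39, StringTie 1.3.6, featureCounts 1.6.4 and DESeq2, and the build is B73 RefGen_v4. No strand setting is stated there. Each deposited value is a raw count, a whole number for 1 gene in 1 library.

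Members and tests were chosen with earlier results of these data known. CPM uses plain column totals. All genes were fitted with edgeR 4.0.16 in R 4.3.3 (filterByExpr with minimum count 10, TMM scaling, robust quasi-likelihood F test, Benjamini-Hochberg over 23477 genes), and only the 100 genes and their neighbours in rank are printed. A standard error is the log2 change over the square root of F. Alternatives used DESeq2 1.42.0, limma 3.58.1 (voom), other scalings, filters and thresholds, a replicate block, single libraries left out, and other choices of genes.

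Genes were named by a rule: the 10 highest in WT, the largest changes called with no overlap (5 in each direction), the extremes of CV in zmrpn1 (3 at each end), the 2 genes on either side of the list end, neighbours in the table, and up to 3 genes that left or entered the list. Since no nuclear identifier has a name in the reference gene table (assembly Zm-B73-REFERENCE-NAM-5.0), fewer identifiers are printed for called changes and list edges than the rule allows, and no list by product was made. Replicate libraries differed by more than sampling noise (chi-square of 2.03 to 4.87 per degree of freedom), and none was treated as a duplicate of another. The labels give no batch.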

Additional observations from a re-analysis of the deposited data

How the results depend on the processing

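Of the 100 genes, 21 were called lower and 1 higher in the reported fit, against 1366 (5.82%) and 1556 (6.63%) of all tested genes. The number called lower was 13 with upper quartile scaling, 12 with the replicate number as a block and 9 at an adjusted p under 0.01, and the number called higher was 2 with no filter on low counts. Over all tested genes the same settings, in this order, gave 1310, 1386 and 915 lower and 1658 higher. Leaving out 1 library gave 8 to 34 lower and 1 to 3 higher, and 1033 to 1339 lower and 1184 to 1421 higher over all tested genes. The 100 highest zmrpn1 means gave 17 lower and 5 higher, and the 100 highest means over 6 libraries gave 19 lower and 2 higher. By construction, 50 genes gave 10 lower and 0 higher (18 with an unadjusted edgeR p under 0.05, against 23.4% of all tested genes) and took 7.72% of counts in WT and 7.42% in zmrpn1, and 200 genes gave 32 lower and 6 higher and took 16.4% and 15.9%. These other choices of genes used the reported fit, so its shares of all tested genes apply to them. The median CV ran from 2.56% to 3.81% in WT and from 1.81% to 3.58% in zmrpn1 without 1 library of the group. DESeq2 and limma-voom each gave 24 lower and 1 higher. Over all tested genes DESeq2 called 1119 lower and 1180 higher, and limma-voom called 1319 lower and 1500 higher. The median log2 change ran from -0.0986 to -0.0540 over all alternatives, and the number of genes shared by the genotypes' highest 100 ran from 92 to 94. The labels' numbers gave no pairing: libraries that share a number had correlations of their deviations of -0.04, 0.02 and 0.03. The cause of these differences was not tested. At this depth counting error is at most 1.01% of a value.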
